A study of Mus musculus with 7 samples.

Results

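The genes described here encode the slow and fast isoforms of the adult contractile apparatus of muscle fibres. They are the slow genes Myh7, Tnni1, Tnnt1, Tnnc1, Myl2 and Myl3 and the fast genes Myh2, Myh1, Myh4 and Mylk2. All 10 were chosen by name, out of 18193 genes measured with a single symbol. They have 15 probe sets of their own among the 45101 of the Affymetrix mouse array used. Each gene is represented by the brightest of its probe sets, judged by mean log2 signal over the 7 arrays. Another 2 probe sets that Myh7 shares with Myh6 were left out.

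The arrays carry total RNA of plantaris, a fast muscle of the calf, from Pax7-DTA mice aged 4 months. These mice come from the parental strains Pax7-CreER and Rosa26-DTA, so that tamoxifen switches on a toxin in cells in which the Pax7 gene is active, the muscle stem cells (satellite cells). All groups, the controls included, carry both alleles. Animals underwent sham surgery or synergist ablation, in which neighbouring muscles of the calf are removed and the plantaris was overloaded for 1 week. There was 1 array for vehicle sham and 1 for tamoxifen sham, both of males. Vehicle overload had 2 arrays (replicate 1 of a female, replicate 2 of a male) and tamoxifen overload 3 (replicates 1 and 2 of males, replicate 3 of a female). Only the titles of the male tamoxifen overload arrays carry a number. The other replicate numbers were assigned here, and equal numbers do not link arrays of different groups. The titles read as single mice, while elsewhere the labels mention pooling and a total of 11 animals. The number of animals per array is therefore uncertain, and p-values measure the spread between these arrays.

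Adult fibres contract by myosin filaments pulling on actin, under the control of troponin, which binds calcium. Slow (type I) fibres use the heavy chain of Myh7 with the light chains of Myl2 and Myl3 and the troponin subunits of Tnni1, Tnnt1 and Tnnc1. Fast fibres use the heavy chains of Myh2 (type IIA), Myh1 (IIX) or Myh4 (IIB), with fast troponins. Myh7, Myl2, Myl3 and Tnnc1 also serve the heart, and Tnni1 is an isoform of developing muscle. Sustained load is known to move fibres from the fast towards the slow end of this range.

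The sequences just upstream of the start sites are shown because sets of these genes moved together on the arrays. RefSeq (GRCm38.p6) gave a start site for 9 of the 10 genes and none for Mylk2. For the genes of the 3 slow troponin subunits, which rose, and for Myl3, the 250 bases upstream are given 5′ to 3′ on the gene's strand. Capitals mark the motifs E-box (CANNTG) and MCAT (CATTCC or, on the other strand, GGAATG). Where a gene has several start sites the most upstream one was used.
Tnni1, chr1:135799171-135799420, plus strand: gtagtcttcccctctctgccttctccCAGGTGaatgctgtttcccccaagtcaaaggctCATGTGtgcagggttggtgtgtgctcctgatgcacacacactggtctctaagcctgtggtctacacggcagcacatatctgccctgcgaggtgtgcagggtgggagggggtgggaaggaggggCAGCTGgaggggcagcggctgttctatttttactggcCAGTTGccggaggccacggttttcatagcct
Tnnt1, chr7:4515976-4516225, minus strand: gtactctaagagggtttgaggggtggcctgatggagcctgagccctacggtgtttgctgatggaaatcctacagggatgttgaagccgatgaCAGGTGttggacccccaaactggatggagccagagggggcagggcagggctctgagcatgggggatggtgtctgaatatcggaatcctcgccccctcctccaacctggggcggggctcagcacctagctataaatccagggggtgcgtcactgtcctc
Tnnc1, chr14:31208062-31208311, plus strand: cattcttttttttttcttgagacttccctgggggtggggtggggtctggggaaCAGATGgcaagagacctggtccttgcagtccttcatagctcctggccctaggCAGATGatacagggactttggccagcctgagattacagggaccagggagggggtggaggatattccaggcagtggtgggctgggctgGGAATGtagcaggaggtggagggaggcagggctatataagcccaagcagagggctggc
Myl3, chr9:110763428-110763677, plus strand: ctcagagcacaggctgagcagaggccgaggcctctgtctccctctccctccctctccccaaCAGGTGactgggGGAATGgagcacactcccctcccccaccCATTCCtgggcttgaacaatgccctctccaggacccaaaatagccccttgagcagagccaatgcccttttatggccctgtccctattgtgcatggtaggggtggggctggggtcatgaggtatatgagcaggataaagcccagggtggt
The window of Tnni1 held 4 E-boxes, that of Tnnt1 held 1 and that of Tnnc1 held 2, along with 1 MCAT motif in Tnnc1. Myl3 held 1 E-box and 2 MCAT motifs. Of all 32851 upstream windows of this length 66.2% held an E-box and 12.6% an MCAT motif, so E-boxes in particular are common. Among the other members MCAT occurred in the windows of Myh7, Myh1 and Myh4. A match describes the letters only.

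The fast heavy chain genes lie side by side on chromosome 11, and their upstream windows share a stretch of 20 bases, in capitals here with 30 bases on each side.
Myh2, chr11:67170867-67170946, plus strand: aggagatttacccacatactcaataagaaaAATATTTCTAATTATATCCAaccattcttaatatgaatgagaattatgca
Myh1, chr11:67199907-67199986, plus strand: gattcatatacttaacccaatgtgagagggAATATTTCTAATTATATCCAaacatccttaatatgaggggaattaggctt
Myh4, chr11:67237619-67237698, plus strand: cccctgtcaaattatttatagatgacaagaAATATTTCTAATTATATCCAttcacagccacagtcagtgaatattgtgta
It began 130, 165 and 163 bases upstream of the start in Myh2, Myh1 and Myh4. On either strand it was found at 3 of the 32851 starts, those of these genes. The stretch was looked for after the values of these genes were seen.

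The deposited signals are intensities on a linear scale, and the mean of each array without its lowest and highest 2% was 500.003. Signals are quoted on that scale, and differences as log2(signal + 1). The background level was a signal of 53.6, which 66.8% to 72.7% of genes exceeded on an array. The highest signal on an array ran from 34937 on tamoxifen overload replicate 2 to 56569 on vehicle sham. The level of Pax7 was 92.8 and 41.2 on the vehicle and tamoxifen sham arrays, 274 and 349 on the vehicle overload arrays, and 120, 57.9 and 9.97 on the tamoxifen ones. Markers of fibres were abundant. Ckm, the muscle creatine kinase, stood at 33943 and 33395 on the sham arrays and at 24310 to 30834 under overload. Heart muscle markers were near background. Of 6, Nppa and Ryr2 stayed below it on every array, Myl7 was above it on 1 array, Nppb on 2, and Tnni3 and Myh6 on 4 each. Their summed signal was 303 to 344 in sham and 190 to 237 in overloaded muscle. The 6 had no common direction, with fitted differences above 0 for 3 and below 0 for 3. Myh6 was the only one called lower. Tnni3 was the only one called higher, with 19.9 and 4.5 in sham and 51.7 to 105.7 under overload (limma adjusted p = 0.00764). All 10 members lay above background on every array.

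The genes of the slow troponin complex rose under overload. Tnni1, the inhibitory subunit that holds actin off when calcium is low, read 503 on vehicle sham and 1160 on tamoxifen sham. Under overload it read 10051 and 9344 with vehicle and 8251, 5344 and 4282 with tamoxifen. Each overload array was well above both sham arrays, and the tamoxifen arrays were all below the vehicle arrays. The fitted rise, averaged over both treatments, was 8.46-fold (log2 difference 3.08 ± 0.19, SE; limma adjusted p = 9.41e-05).

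Tnnt1, the subunit that anchors the complex to tropomyosin, gave 836 and 1153 in vehicle and tamoxifen sham. Overload arrays gave 8178 and 7865 with vehicle and 4036, 3990 and 1824 with tamoxifen. The same order held as for Tnni1, with tamoxifen overload replicate 2 closest to sham. The rise was 4.57-fold (2.19 ± 0.30; limma adjusted p = 0.00217). Tnnc1, the calcium-binding subunit, read 1002 and 1699 in sham, 6462 and 4262 in vehicle overload and 6463, 4192 and 3084 in tamoxifen overload. Both female arrays stood at the top, and the treatments overlapped. It rose 2.96-fold (1.57 ± 0.17; limma adjusted p = 0.00077).

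**Figure D1:**
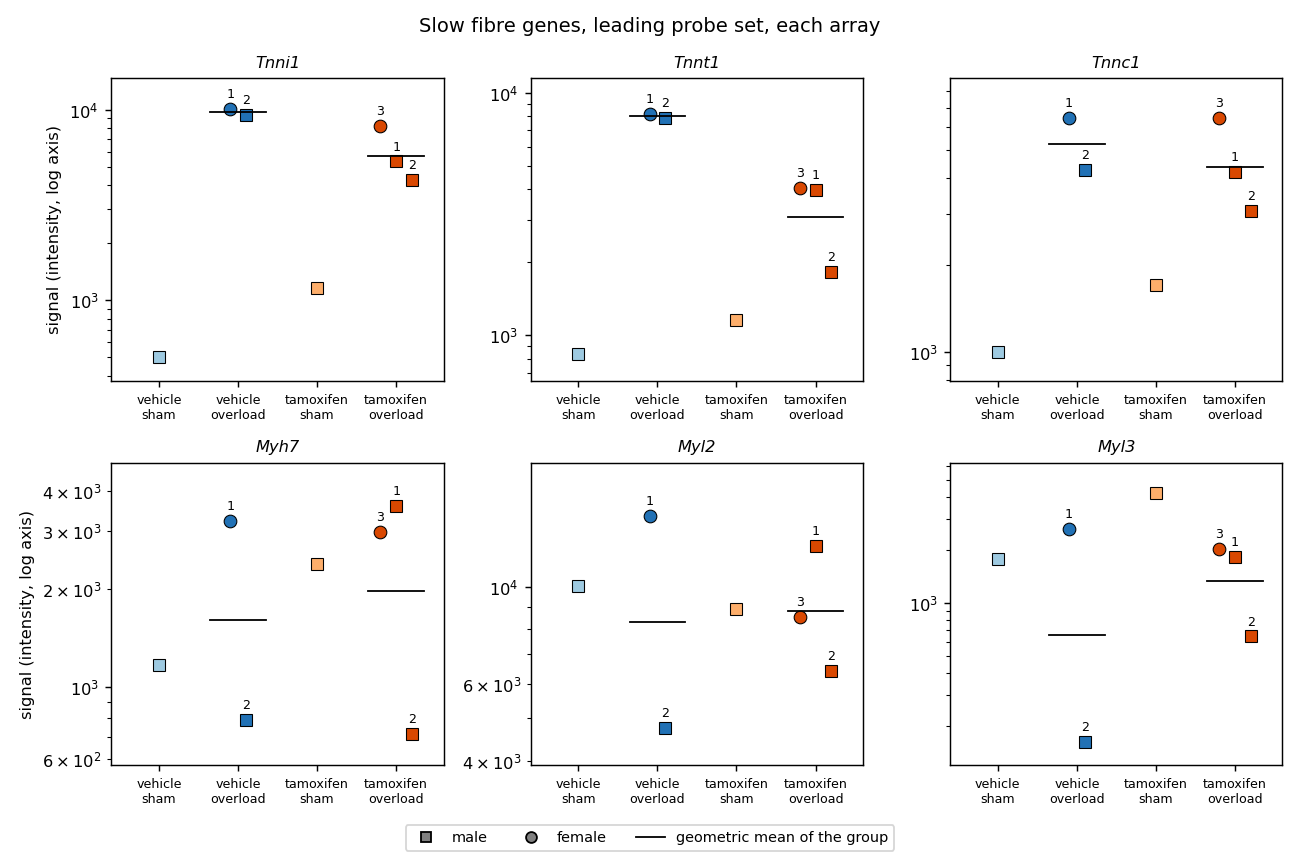
Signal of the 6 slow genes on each array (log axis; squares are males, circles females, numbers are replicates, lines are geometric means of groups with more than 1 array). In the upper row Tnni1, Tnnt1 and Tnnc1 are higher on all 5 overload arrays than on both sham arrays. In the lower row Myh7, Myl2 and Myl3 scatter widely under overload, with vehicle replicate 2 and tamoxifen replicate 2, both of males, lowest.

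The slow myosin genes did not follow the troponins. Myh7, the slow heavy chain itself, read 1165 and 2376 on the vehicle and tamoxifen sham arrays. Overload arrays read 3228 and 792 with vehicle and 2982, 3589 and 716 with tamoxifen. The overloaded muscles thus lay on both sides of sham, 5.01-fold apart from lowest to highest, and each treatment held high and low arrays. The fitted difference was -0.48 ± 0.59 (limma adjusted p = 0.624), with a 95% interval from -1.84 to 0.88.

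Myl2, the regulatory light chain of slow fibres, was already high on the vehicle and tamoxifen sham arrays, at 10059 and 8916. It read 14529 and 4741 in vehicle overload and 8542, 12423 and 6414 in tamoxifen overload. The low arrays were the same as for Myh7, and the groups overlapped. The fitted difference was -0.42 ± 0.39 (limma adjusted p = 0.509; 95% interval from -1.33 to 0.48).

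Myl3, the essential light chain of slow fibres, read 1768 and 4223 in sham, 2632 and 161 in vehicle overload and 2027, 1819 and 641 in tamoxifen overload. Vehicle overload replicate 2 was again lowest, 16.3-fold below the highest overload array, and tamoxifen overload replicate 2 was next. The fit gave a fall of 5.60-fold (-2.49 ± 0.66; limma adjusted p = 0.0306), although overload and sham arrays overlapped. This value rests on the term for sex, since both sham arrays are male and both female overload arrays were among the higher ones. Without that term the difference was -1.55 (adjusted p = 0.265), and without vehicle overload replicate 2 it was -1.15 (adjusted p = 0.175). The other probe sets of Myl3 gave the same order of arrays at the bottom, with signals of 94.3 and 227 on vehicle overload replicate 2. Among 34945 probe sets tested together their differences were -1.93 (limma adjusted p = 0.0759) and -1.90 (0.0394).

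Over the 7 arrays the slow genes thus formed 2 sets, a description of 7 arrays whose genes share each array's RNA and scaling. Within Tnni1, Tnnt1 and Tnnc1 Pearson's r of the log2 signals was 0.90 to 0.97, and within Myh7, Myl2 and Myl3 it was 0.76 to 0.81. Between the sets it ran from -0.38 to 0.38. On vehicle overload replicate 1 all 6 slow genes exceeded their own sham array. On vehicle overload replicate 2 and on tamoxifen overload replicate 2 only 3 did, the troponin genes.

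**Figure D2:**
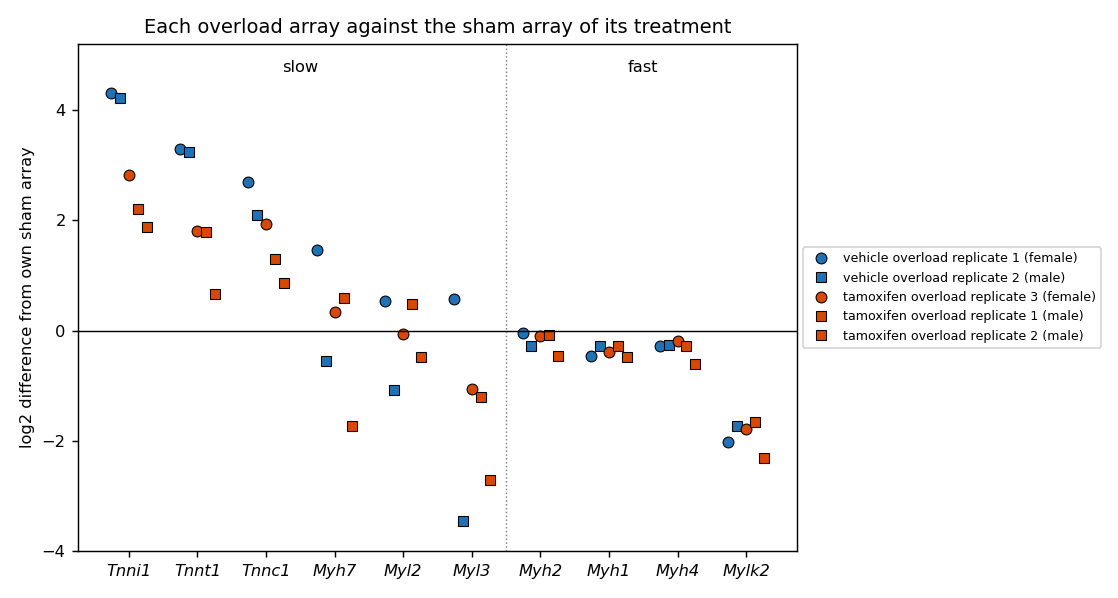
Log2 difference of each overload array from the sham array of its own treatment, for the 6 slow genes (left) and the 4 fast genes (right; squares are males, circles females). The troponin genes are above 0 on all 5 arrays, Myh7, Myl2 and Myl3 lie on both sides of 0, and every fast gene is below 0 on all 5.

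Markers of other cells moved with overload as well. The summed signal of 6 fibroblast markers was 34695 and 44241 in sham and 92898 to 116736 under overload, and that of 6 macrophage markers 4393 and 7681 against 17601 to 28275. None of 6 fibre markers, Ckm among them, passed the test, and their summed signal went from 192363 and 203163 to between 141272 and 176845. Arrays were scaled to a common trimmed mean. In whole muscle fewer fibres, less RNA per fibre and more RNA from other cells therefore cannot be told apart. The summed signal of 4 adipocyte markers was 1690 and 2443 in sham, 1664 and 816 on vehicle overload replicates 1 and 2, and 978, 922 and 3152 on tamoxifen overload replicates 1, 2 and 3. It was low on the arrays lowest for Myh7, and also on tamoxifen overload replicate 1, the highest for Myh7. The part of these cells in the results was not tested.

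The fast heavy chains were slightly lower under overload, and none passed the test by its leading probe set. Myh4, the heavy chain of the fastest fibres, read 37199 and 34968 in sham, 30583 and 30951 in vehicle overload and 30623, 28884 and 22975 in tamoxifen overload. Every overload array was below both sham arrays. The fitted difference was -0.37 ± 0.19 (limma adjusted p = 0.208; 95% interval from -0.81 to 0.06).

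Myh1, the heavy chain of IIX fibres, read 51026 and 44570 in sham, 37054 and 42235 in vehicle overload and 33939, 36651 and 31896 in tamoxifen overload. Its arrays did not overlap between sham and overload either. The difference was -0.34 ± 0.18 (limma adjusted p = 0.233). Myh2, the heavy chain of IIA fibres, read 34860 and 32035 in sham, 33633 and 28846 in vehicle overload and 29881, 30201 and 23178 in tamoxifen overload. Here vehicle overload replicate 1 lay between the sham arrays, and the difference was -0.27 ± 0.19 (limma adjusted p = 0.357).

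These leading probe sets were among the brightest on the array. By mean level that of Myh1 ranked 3, that of Myh4 ranked 24 and that of Myh2 ranked 29 of 45101. The highest signal of the arrays moved in the same direction as they did. Its part in these values was not tested. The small differences also depend on the scaling. The median difference of all genes was 0.07 as deposited, -0.06 after quantile normalization and -0.22 after centring on the medians. Myh4, Myh1 and Myh2 came to -0.10, -0.07 and 0.03 with the former, so that Myh2 changed sign, and to -0.66, -0.63 and -0.56 with the latter.

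A dimmer probe set of Myh4, 1458368_at (rank 376), showed a larger difference. It read 27254 and 26423 in sham, 11868 and 11166 in vehicle overload and 14398, 8561 and 8101 in tamoxifen overload. The overload arrays were far below sham with both treatments. Among 34945 probe sets this was a fall by 1.53 ± 0.20 on the log2 scale (limma adjusted p = 0.002), within vehicle by 1.49 (0.0215) and within tamoxifen by 1.57 (0.0086). With the mean of both probe sets Myh4 passed at -0.95 (limma adjusted p = 0.0195). The probe sets of Myh4 therefore disagree in size and agree in sign.

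For Myh1 a bright probe set, 1427520_a_at, resembled the leading one at -0.47 ± 0.19 (limma adjusted p = 0.132). A dim one, 1452465_at, read 721 and 454 in sham, 622 and 864 in vehicle overload and 474, 2181 and 338 in tamoxifen overload. Its high value came from tamoxifen overload replicate 1, and its difference was 0.62 ± 0.65 (limma adjusted p = 0.576). The leading probe set of Myh1 has the suffix _x_at, which Affymetrix gives to sets whose probes can bind related transcripts, and the heavy chains are closely related genes.

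**Figure D3:**
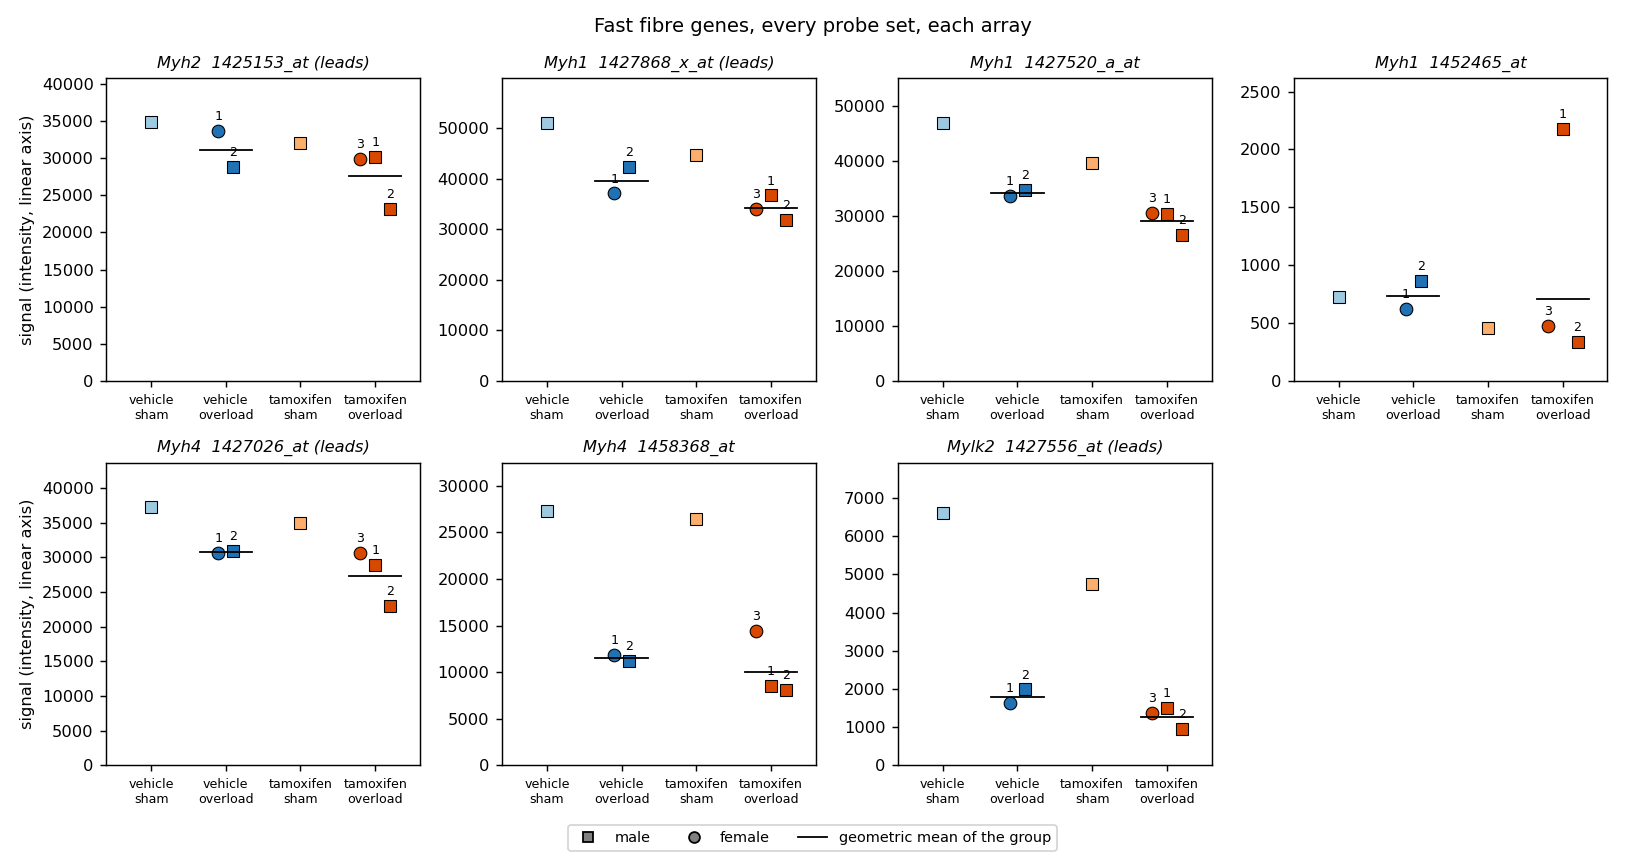
Signal of every probe set of the 4 fast genes on each array (linear axes from 0; squares are males, circles females, numbers are replicates, lines are geometric means of groups with more than 1 array). The leading sets of Myh2, Myh1 and Myh4 change little, while 1458368_at of Myh4 drops from 27254 and 26423 in sham to between 8101 and 14398 under overload and Mylk2 from 6597 and 4751 to between 952 and 1988.

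Mylk2, the kinase that phosphorylates the regulatory light chain of fast fibres, fell most clearly. It read 6597 and 4751 in sham, 1631 and 1988 in vehicle overload and 1383, 1502 and 952 in tamoxifen overload. All overload arrays were below both sham arrays, and the tamoxifen arrays were below the vehicle ones. The fall was 3.72-fold (-1.90 ± 0.22; limma adjusted p = 0.00103).

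Of the 10 members 3 were called higher for overload against sham and 2 lower, against 14.7% of all genes called higher and 8.16% called lower (22.9% in all). Sham and overload arrays did not overlap for 6 members, 3 higher and 3 lower, where 23.1% and 18.3% of all genes did so. The median difference was 0.57 over the slow genes and -0.36 over the fast ones, beside 0.07 over all genes. All calls rest on variances smoothed along signal strength, since the fit has 2 residual degrees of freedom. Without that smoothing limma called 0 of 10 members and 0 of 18193 genes (5234 at an unadjusted p under 0.05), and Tnni1 reached adjusted p = 0.0574.

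**Figure D4:**
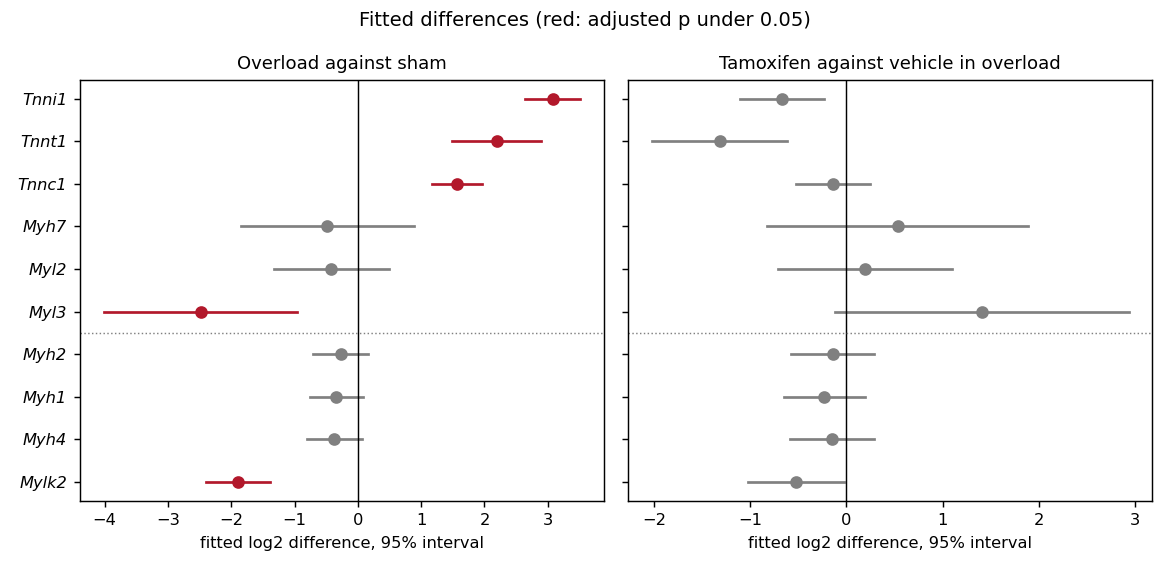
Fitted log2 differences with 95% intervals for overload against sham (left) and tamoxifen against vehicle in overload (right), slow genes above and fast genes below the dotted line; red marks an adjusted p under 0.05. On the left Tnni1, Tnnt1 and Tnnc1 lie above 0 and Myl3 and Mylk2 below, with wide intervals for Myh7, Myl2 and Myl3; on the right no gene passed.

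Within vehicle, overload called 3 members higher and 1 lower, against 6.35% and 2.44% of all genes (8.79% in all). Tnni1 rose by 4.02 ± 0.27, Tnnt1 by 3.08 ± 0.43 and Tnnc1 by 2.02 ± 0.24, and Mylk2 fell by 1.87 ± 0.31 on the log2 scale (limma adjusted p = 0.000387, 0.00612, 0.00326 and 0.0109). Without vehicle overload replicate 2, Tnnt1 and Tnnc1 lost their call (adjusted p = 0.0595 and 0.0533). Within tamoxifen 2 members were called higher and 1 lower, against 9.98% and 4.9% of all genes (14.9% in all). Tnni1 rose by 2.14 ± 0.24 and Tnnc1 by 1.12 ± 0.22, and Mylk2 fell by 1.92 ± 0.28 on the log2 scale (limma adjusted p = 0.00218, 0.0135 and 0.00479). Tnnc1 lost its call there with arrays centred on their medians (adjusted p = 0.0743). Tnnt1, at 1.30 ± 0.39, did not pass (limma adjusted p = 0.0633). It did without tamoxifen overload replicate 2 (1.78) or 1 (0.93), without the sex term (1.42; adjusted p = 0.0437) and among genes above background alone (adjusted p = 0.0436). Myl3 stood at -2.56 ± 0.94 with vehicle and -2.41 ± 0.86 with tamoxifen and passed with neither (limma adjusted p = 0.143 and 0.1). Dropping either female array gave the same differences as males alone, because the other female is then matched exactly by its own sex effect. Within vehicle this compares overload replicate 2 with the sham array, a single array against a single array, and Myl3 stood at -3.45. Leaving out the first tamoxifen overload array made Myl3 pass in both. Without vehicle overload replicate 2 it stood at -0.33 with vehicle and passed with tamoxifen alone (-1.97; adjusted p = 0.0309). Each sham side is a single array, taken to vary like the overload arrays.

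Whether tamoxifen changed these genes in overloaded muscle was asked with 3 against 2 arrays. The slow troponin genes Tnni1 and Tnnt1 had lower values with tamoxifen, as the levels above show, at -0.67 ± 0.19 and -1.32 ± 0.30. Neither passed (limma adjusted p = 0.391 and 0.378). Tnnc1 stood at -0.14 ± 0.17, with a 95% interval from -0.53 to 0.25. Limma called 0 of 10 members and 0% of all genes. At an unadjusted p under 0.05 there were 3 members (Tnni1, Tnnt1 and Mylk2) and 1932 genes. Tnnt1 passed at -1.56 (adjusted p = 0.00328) when tamoxifen overload replicate 1, the highest of the tamoxifen arrays for Myh7, was left out, a fit that called 227 genes.

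The remaining slow genes stood at 0.53 ± 0.59 for Myh7, 0.19 ± 0.39 for Myl2 and 1.41 ± 0.66 for Myl3 (limma adjusted p = 0.759, 0.879 and 0.488). All of these intervals include 0. The fast genes stood at -0.14 ± 0.19 for Myh2, -0.23 ± 0.18 for Myh1, -0.15 ± 0.19 for Myh4 and -0.52 ± 0.22 for Mylk2 (limma adjusted p = 0.799, 0.657, 0.789 and 0.465). For 4 members (Tnni1, Tnnt1, Myh1 and Mylk2) every tamoxifen overload array was below both vehicle overload arrays, where 12.6% of all genes did so. The reverse held for 0 members and 16.9% of all genes.

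The rise of the troponin genes was smaller with tamoxifen than with vehicle by 1.88 ± 0.35 for Tnni1, 1.78 ± 0.56 for Tnnt1 and 0.90 ± 0.31 for Tnnc1 (log2), a test of the interaction that none passed (limma adjusted p = 0.697, 0.781 and 0.782). No other gene passed it either: 0% were called, and 1021 genes had an unadjusted p under 0.05. Without tamoxifen overload replicate 1 Tnni1 passed at -1.91 (limma adjusted p = 0.0412), in a fit that called 12 genes. The sham arrays gave 1.20 of the 1.88 for Tnni1, 0.76 of the 0.90 for Tnnc1 and 0.46 of the 1.78 for Tnnt1 (log2). For Tnni1 and Tnnc1 the larger part thus rests on 1 sham array against 1. On the tamoxifen sham array Tnni1 was 2.30-fold, Myl3 2.39-fold, Myh7 2.04-fold, Tnnc1 1.70-fold and Tnnt1 1.38-fold the vehicle sham array. Myl2 and the 4 fast genes were lower there, by 1.06-fold to 1.39-fold. These are 1 array against 1 with no test, and 17.6% of all genes differed at least 2-fold between them, as 3 of 10 members did.

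The sex term was carried by the overload arrays alone. Female values were higher for Myl3 by 2.24 ± 0.66, Myh7 by 1.38 ± 0.59, Tnnc1 by 0.74 ± 0.17 and Tnni1 by 0.49 ± 0.19. None passed (limma adjusted p = 0.92, 0.98, 0.698 and 0.978), where 0.0495% of all genes, 9 in number, did (0.033% higher and 0.0165% lower in females). Without tamoxifen overload replicate 1, the only male overload array with high Myh7, both Myh7 (2.04) and Myl3 (2.84) passed. That fit called 37 genes, and neither Myh7 nor Myl3 passed in any other alternative.

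Other genes of the slow fibre programme were also split in direction. Of 17 measured, 7 rose for overload against sham and 2 fell, with a median of 0.27. Beside this and the lists that follow, 14.7% of all genes were called higher and 8.16% lower. Sln, which inhibits the calcium pump, rose by 6.49, and Casq2, a calcium store protein, by 2.20. Atp2a2, the slow calcium pump, read 2685 and 4041 in sham, 10707 and 9429 in vehicle overload and 7088, 7344 and 3793 in tamoxifen overload. Its last array lay between the sham arrays, and it rose by 1.08 (limma adjusted p = 0.0209). Myl6b passed too, at 2.14, but was above background on 3 arrays only. Myh6, the heart's other heavy chain, read 217 and 172 in sham and 23.7 to 66.2 under overload. It passed as lower (limma adjusted p = 0.0166), but 3 of the overload arrays were below the background level, so the size of the fall is not given. Ldhb, the other gene that fell, read 9393 and 8341 in sham and 2365 to 4615 under overload. Its difference was -1.50 (limma adjusted p = 0.00259).

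Of 17 other fast fibre genes 0 rose and 5 fell, and each of the 17 lay below 0 (median -0.39). Gpd1, a glycolytic shuttle enzyme, fell by 1.83, the Z-disc gene Myoz1 by 0.65, Pfkm (muscle phosphofructokinase) by 0.67 and Mybpc2 (fast myosin binding protein C) by 0.59, all on the log2 scale. The fast troponin genes Tnni2, Tnnt3 and Tnnc2 stood at -0.28, -0.45 and -0.27 and did not pass (limma adjusted p from 0.136 to 0.338). Of 13 general sarcomere genes 0 rose and 3 fell, with a median of -0.36, close to that of the fast members.

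The sarcomere genes of developing muscle rose the most. All 6 listed did so, with a median of 4.62. Myh3, the embryonic heavy chain, read 275 and 241 in sham, 13543 and 9950 in vehicle overload and 10037, 4746 and 5262 in tamoxifen overload. Its fitted rise was 4.73 (limma adjusted p = 6.29e-06). Mybph rose by 6.31, Myl4 by 4.75 and Myh8, the neonatal heavy chain, by 4.50. In overloaded muscle all 6 had lower fitted values with tamoxifen, with a median of -0.54, and none passed.

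Regulators of fibre type mostly had lower values. Of 33 measured 3 rose and 12 fell, beside 14.7% and 8.16% of all genes. Their median of -0.42 was near that of the general sarcomere genes (-0.36). Myog, a myogenic factor of differentiation, rose by 3.39, Vgll3, a partner of TEAD factors, by 2.01 and Nfatc4, a calcineurin target, by 1.49. Ppargc1a, a coactivator that favours oxidative fibres, fell by 1.42 on the log2 scale. Genes known to act in opposite directions on fibre type were among those that fell. Sox6, which represses slow genes, fell by 1.05 (limma adjusted p = 0.0236), and Eya1 and Six4, which favour fast genes, by 1.14 and 0.68. Nfatc1, which favours slow genes, fell by 0.56. These last genes were named after their values were seen.

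The genes most like each member over the 7 arrays were sought among 12512 others above background, as a description by Pearson's r. For Tnnt1 they were Igf2r, Nol3 and the slow calcium pump gene Atp2a2 (0.98 each), and for Tnni1 Eef1a1, 2310075K07Rik and Cetn3 (0.99 each). For Tnnc1 they were Ift81, Hspa14 and Itih5 (0.99 each). For Myl3 they were 3110040M04Rik, Npy1r and Ppp1r1a (0.97 to 0.99), the last of which read 217 on vehicle overload replicate 2 and 498 to 1271 elsewhere. Myh7 was matched less closely, by Yap1, Wdr25 and Fam241a (0.93 to 0.95), and Myl2 by Spaar, Gtf3c1 and Mgll (0.93 to 0.96). Among the fast genes, Mylk2 was matched by Ttc19, Pex11a and Ube2d1 (1.00 each), Myh1 by Srl, Sirt2 and Pam16 (0.99 to 1.00), Myh4 by Rxrb, Gtf2i and Ide (0.98 to 0.99) and Myh2 by Jmjd8, Fry and Rfx2 (0.97 to 0.99). With 7 arrays and 12512 candidates such values are easily reached.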

How the data were processed

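RNA of whole muscle, 1 µg per array, was measured on Affymetrix mouse expression arrays. The submitters' processing notes name Partek without a version, and how probes were summarised was not stated. The authors deposited 1 linear intensity per probe set and array, scaled to a common trimmed mean, so a change in total RNA per muscle is not visible.

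Intensities were converted to log2(value + 1). Of the probe sets, 34945 carry a single symbol, 932 several and 9160 none, and 64 are controls. Those with a single symbol gave 18193 genes, each represented by its brightest probe set. The background level (log2 5.77) is the 95th percentile among 77 chemosensory receptor genes. Groups and sex entered a linear model in limma 3.58.1 (R 4.3.3, the data.table package, 1.17.8). Its variances were smoothed along signal strength, giving 5.95 prior beside 2 residual degrees of freedom, and SE is the moderated error. Tests were two-sided. A gene was called where its p, adjusted over all genes by the Benjamini-Hochberg method, was under 0.05. The procedure was tested on simulated data, with normal errors and known changes added to genes of the overload arrays. Estimates were close to the changes added, but false calls made up a larger share of the calls than the threshold allows, so calls near it are less certain than their adjusted p. Promoter sequences came from RefSeq, and plots were made in matplotlib 3.10.9 (Python 3.11.15).

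Members and lists were chosen with earlier results of these data known. The rule for named genes took every member, up to 4 called genes per list with the largest differences, the 3 genes most like each member, and Pax7, Myh3 and Ckm. Outside it, the fast troponin genes, the heart markers, Ldhb, Sox6, Eya1, Six4 and Nfatc1 were named after their values were seen. The fit was repeated without sex, without females, without the interaction, after quantile normalization, after centring on array medians, with a pseudocount of 16, over genes above background, over probe sets instead of genes, over averaged probe sets, with unsmoothed or robust variances, and with each array left out.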

Additional observations from a re-analysis of the deposited data

How the results depend on the processing

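Calls of members were counted under each alternative. For overload against sham, overall and within vehicle and within tamoxifen, 0 members passed without the intensity trend of the variances; no other alternative short of leaving out an array moved these counts by more than 1.5 times. Leaving out each array in turn gave 3 to 7 called members for overload against sham, 2 to 5 within vehicle, 3 to 6 within tamoxifen, 0 to 1 for tamoxifen against vehicle in overload, 0 to 1 for the interaction and 0 to 2 for sex. Without a sham array overload against sham equals the comparison within the other treatment. The number of all genes called varied between these fits as well. Without tamoxifen overload replicate 1 the most members were called for overload against sham. Among the fits with an array left out, that one also called the most genes, 4695 of 18193, where the main fit called 4163. Among differences that were not called, the sign turned for Myh7 without the sex term (0.094), Myh2 after quantile normalization (0.029) and, for tamoxifen against vehicle, Tnnc1 in the additive model (0.13). With an array left out, overload against sham ranged from -1.14 to 0.019 for Myh7 and from -0.78 to 0.30 for Myl2. Both low ends came without tamoxifen overload replicate 1, where Myh7 and Myl2 passed as lower (limma adjusted p = 8.87e-05 and 0.0139). They passed in no other alternative. For tamoxifen against vehicle in overload the difference ranged from -0.13 to 1.03 for Myh7, -0.77 to 0.91 for Myl2, -0.38 to 2.74 for Myl3, -0.25 to 0.00024 for Tnnc1 and -0.26 to 0.0019 for Myh4. No paired analysis was possible because the titles link no array of a group to an array of another group. With 7 arrays and 1 per sham group, their number limits the precision of every value.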
